A study of Homo sapiens with 32 samples.

Results

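The sites described here are 7321 summits of NRF1 chromatin immunoprecipitation that lie away from the 5′ ends of protein-coding genes and share their position with SP1 or YY1. They were chosen by 4 conditions from the 39194 lines of the NRF1 summit list: a place on chromosomes 1 to 22 or X, more than 2000 bp to the 5′ end of every protein-coding gene of GENCODE 44, an SP1 or YY1 summit within 100 bp, and no ZNF143 summit within 100 bp. They make up 36.3% of the 20170 distal NRF1 summits and 18.7% of the 39180 NRF1 summits on those chromosomes. Because the rule used positions in the NRF1, SP1, YY1 and ZNF143 lists, the presence of a partner, the distances to it and the scores of all 4 factors describe the choice and are no finding.

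All samples came from HEK293T, an established line of human embryonic kidney cells, in a single clone (HEK_CloneZD29) with a dTAG degron on ZNF143. The degron, a fused domain through which dTAGV-1 sends the protein to be degraded, is present in the untreated controls as well. The 32 samples form 10 groups, of which SP1, NRF1 (spelled Nrf1 in the labels) and YY1 hold 4 untreated samples and 4 given 50 nM dTAGV-1 for 30 minutes each, and ZNF143, precipitated through an HA tag, and a mock precipitation hold 2 and 2. The deposited lists give 1 line per summit and no value per sample, so treated and untreated cells could not be compared, and no replicate error can be given. The SP1 and ZNF143 lists are attached to untreated and treated samples alike, and the labels attach the NRF1 and YY1 lists to no sample, so a site may come from either condition. Each line carries a score, which from its layout and range is a −log10 significance value (p or q, not stated which) from the peak caller, and read depth per sample is unknown. Intervals are 95% intervals and cover counting error among summits only; neighbouring summits are not independent, since 3333 of the 7321 sites (45.5%) share a peak with another summit and the 7321 sites lie in 6515 peaks.

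NRF1, nuclear respiratory factor 1, binds as a dimer to a GC-rich palindrome and is known for its place at CpG-island promoters of genes for mitochondrial respiration, translation and the cell cycle. SP1 is a zinc-finger activator of GC boxes, and YY1 is a zinc-finger protein of promoters and enhancers that binds a word around ATGG. CTCF, which has no list here, is the zinc-finger protein of insulators and loop anchors, and ZNF143 is a zinc-finger factor of promoters that has been placed with CTCF at loops. The searched words were the 10-base NRF1 core GCGCANGCGC, a shorter NRF1 word of 6 bases, TGCGCA, the GC box GGGCGG, the YY1 word AANATGGCG, and the CTCF consensus, which is named only. Both strands were searched, and a word counted where it lay wholly within 50 bp of the summit. The 10-base core and the 6-base word can overlap. A match is a description of the letters and not evidence of binding.

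The sequences below are the plus strand of hg38, 61 bases centred on the NRF1 summit. The first set shows what the strongest sites look like: each is among the 42 highest NRF1 scores of the 7321 sites, and the capitals mark the NRF1 core, in either orientation.
LRFN3 site (chr19:35931527-35931587): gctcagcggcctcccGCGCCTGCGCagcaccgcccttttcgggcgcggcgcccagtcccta
NUFIP1 site (chr13:44918054-44918114): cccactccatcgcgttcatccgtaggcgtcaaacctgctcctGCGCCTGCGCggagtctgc
CROCCP2 site (chr1:16644730-16644790): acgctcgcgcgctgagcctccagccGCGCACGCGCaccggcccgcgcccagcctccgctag
EEF2 site (chr19:3987889-3987949): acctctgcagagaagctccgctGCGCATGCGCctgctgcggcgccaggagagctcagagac
DUBR site (chr3:107240644-107240704): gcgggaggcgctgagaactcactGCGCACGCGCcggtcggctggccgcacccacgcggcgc
SSC5D site (chr19:55503829-55503889): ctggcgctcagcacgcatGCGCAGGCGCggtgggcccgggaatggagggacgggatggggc
OAT site (chr10:124389330-124389390): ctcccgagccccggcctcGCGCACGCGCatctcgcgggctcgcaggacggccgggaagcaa

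The second set holds sites that are as strong but carry only the 6-base word, in capitals.
TMEM219 site (chr16:29961957-29962017): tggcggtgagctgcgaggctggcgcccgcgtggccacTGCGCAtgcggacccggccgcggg
PLLP site (chr16:57300572-57300632): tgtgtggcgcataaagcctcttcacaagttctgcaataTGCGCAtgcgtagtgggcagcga
FZD9 site (chr7:73399559-73399619): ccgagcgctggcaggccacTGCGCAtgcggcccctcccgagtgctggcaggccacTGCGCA

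The third set shows weaker NRF1 summits beside partners. In the first pair the capitals mark a match to the CTCF consensus, and in the last a match to the YY1 word.
IRF2BPL site (chr14:77053380-77053440): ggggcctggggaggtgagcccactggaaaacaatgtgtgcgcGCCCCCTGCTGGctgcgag
ZNF594 site (chr17:5197103-5197163): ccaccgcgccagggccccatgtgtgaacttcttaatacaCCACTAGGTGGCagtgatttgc
LINC02696 site (chr11:45355391-45355451): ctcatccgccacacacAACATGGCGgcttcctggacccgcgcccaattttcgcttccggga
The IRF2BPL and ZNF594 sites were taken after values were seen, as the pair with both partners and the consensus close to the summit whose NRF1 score lies nearest the median of sites with that consensus.

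Most of the sites had low NRF1 scores. The median was 5.52 (5.40 to 5.70), with quartiles of 3.25 and 13.1 and a highest value of 15810. Scores under 10 made up 69.3% of the sites, 15.6% reached 30, and 228 (3.11%) reached 1000. For comparison, the 11399 distal NRF1 summits with no SP1, YY1 or ZNF143 within 100 bp, called lone distal summits below, had a median of 4.09 (4.04 to 4.10). The 19010 NRF1 summits up to 2000 bp from protein-coding 5′ ends, called promoter summits below, had 9.66 (9.42 to 10.1). The shared sites thus lay between the other sets at the median, and at the top their 90th percentile of 70.2 exceeded the 16.6 of the lone distal summits and was far under the 2033 of promoter summits. Lone refers to the 100 bp limit only, and many lone distal summits had SP1 or YY1 a little further out. The nearer of these partners was in the first 20 bp past the limit for 1069 lone distal summits. That partner lay at 121 to 140 bp for 1009 and at 381 to 400 bp for 215. Contrasts of shared with lone summits thus divide them by this limit, and do not set summits with a partner nearby against summits without.

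**Figure D1:**
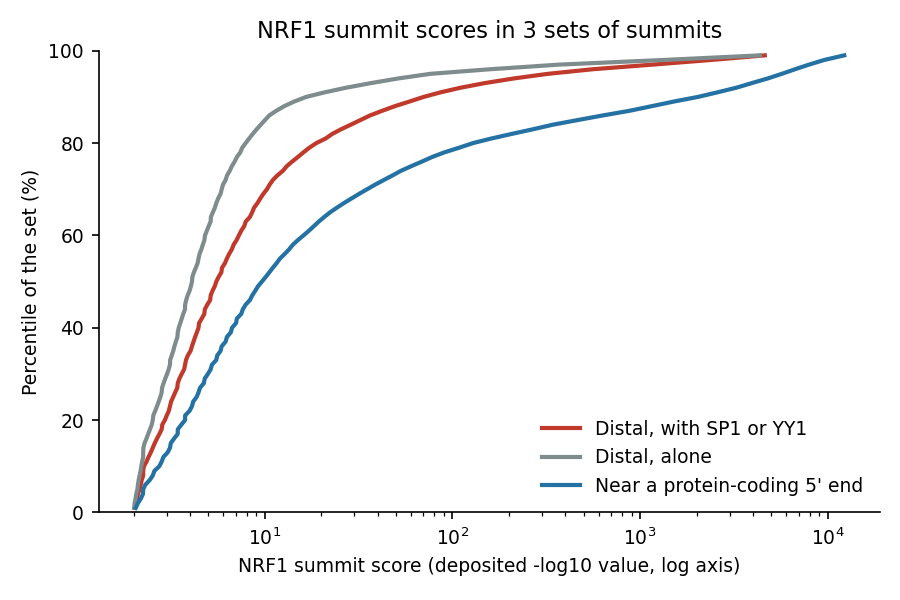
Percentile of each set (vertical axis, %) against the NRF1 summit score (deposited −log10 value, log axis) for distal summits with SP1 or YY1, lone distal summits and promoter summits. Each line runs from the first to the 99th percentile of its set, and the line of the shared sites crosses its median at 5.52, between 4.09 and 9.66.

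Partners divided the sites into 3 classes. Here and below, without and alone mean no summit of the other partner within 100 bp, and such a summit can lie just beyond. Both SP1 and YY1 lay within 100 bp of 3075 sites (42.0%, 40.9 to 43.1), SP1 without YY1 of 2264 (30.9%) and YY1 without SP1 of 1982 (27.1%). Median NRF1 scores were 6.21, 5.20 and 4.99 in that order, but the 90th percentile was highest, at 166, where SP1 stood without YY1, against 58.7 with both and 41.4 with YY1 alone. The class makeup changed along the score: SP1 without YY1 held 32.8% (30.5 to 35.2) of sites scoring 2 to 3, 24.8% (22.4 to 27.5) at 10 to 30, and 56.1% (49.7 to 62.4) of those at 1000 or more. Sites with both partners made up 49.1% (44.8 to 53.3) at scores of 30 to 100 and 26.3% (21.0 to 32.4) at 1000 or more. At the highest scores SP1 without YY1 was thus the most frequent class.

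The partners' own scores were high for distal summits of their lists. The nearest SP1 summit of a site had a median SP1 score of 30.9 (29.0 to 33.6, n = 5339), and the 89964 distal SP1 summits without NRF1 or ZNF143 within 100 bp had 10.9. The nearest YY1 summit had a median YY1 score of 31.2 (29.9 to 32.6, n = 5057), beside 10.5 for the 69731 corresponding YY1 summits. SP1 scores were higher beside stronger NRF1 summits, with a median of 16.4 at NRF1 scores of 2 to 3, 50.9 at 10 to 30 and 113 at 1000 or more. YY1 medians were 20.9 at 2 to 3, 51.5 at 30 to 100 and 43.4 (33.9 to 60.7) at 1000 or more. Across sites Spearman's rho between NRF1 and SP1 scores was 0.27 (n = 5339), between NRF1 and YY1 0.23 (n = 5057), and between SP1 and YY1 0.63 (n = 3075). These points share the genome position, its copy number and its base composition, and the correlation of NRF1 score with GC content was itself 0.52 (n = 7321).

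Within the 100 bp limit, the nearest SP1 and the nearest YY1 summits were only slightly more numerous close to the NRF1 summit. SP1 summits lay at a median of 49 bp and YY1 summits at a median of 48 bp among sites that had them, with quartiles of 24 and 75 bp and of 23 and 73 bp. Distal NRF1 summits without ZNF143 whose nearest SP1 summit was 0 to 20 bp away numbered 1161, those at 81 to 100 bp 1077, and those in the next 20 bp, outside the limit, 955. For YY1 the same bands held 1122, 914 and 966. The limit of 100 bp thus cut a decline that went on to 295 for SP1 and 266 for YY1 at 381 to 400 bp. Only the nearest summit of each partner was counted, so an NRF1 summit with a close partner adds nothing to the further bands.

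**Figure D2:**
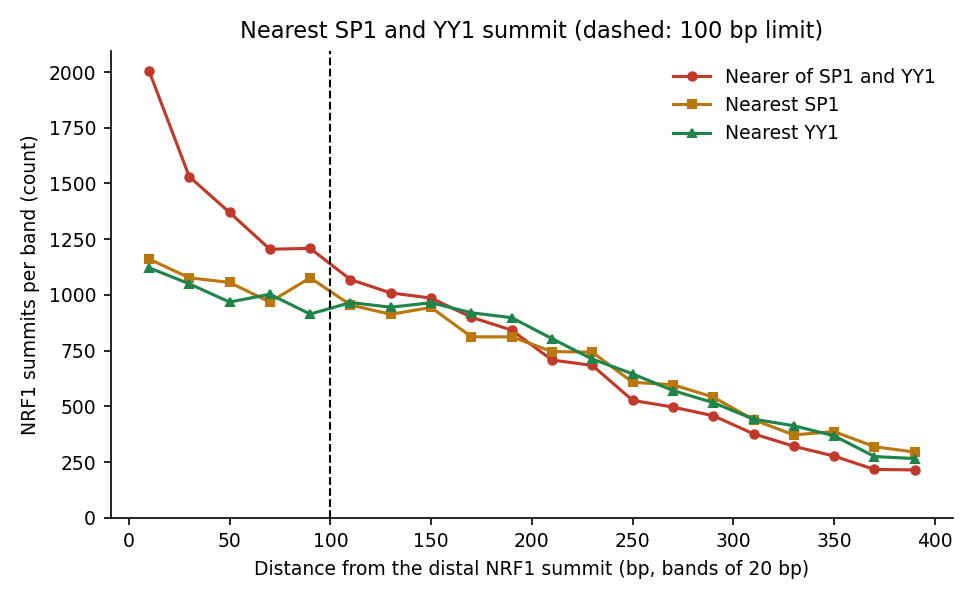
Number of distal NRF1 summits without ZNF143 (vertical axis) whose nearest SP1, nearest YY1 or nearer of both lies in each band of 20 bp from the NRF1 summit (horizontal axis, bp). The dashed line is the 100 bp limit, and counts of the nearer partner go from 2006 in the first band to 1209 in the last band inside the limit and 1069 in the first outside it.

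The values just inside and outside the limits were these. The 171 sites up to 200 bp beyond the 2000 bp limit had a median NRF1 score of 3.87, and the 236 summits up to 200 bp inside it, which the rule left out, had 5.05. Sites with the nearer partner in the last 10 bp of its limit (n = 564) had a median of 5.52, and summits with it in the first 10 bp past the limit (n = 560) had 4.61. Near the ZNF143 limit scores were higher on both sides: the 112 sites with ZNF143 up to 20 bp past it had a median of 11.2, and the 162 left-out summits with ZNF143 in its last 20 bp and a partner had 13.1. In all, 512 sites had a ZNF143 summit between 100 and 250 bp away, with a median score of 11.0, the NRF1 core at 6.84% and CpG-rich sequence at 56.4%, beside 5.28, 1.87% and 29.6% for the 6809 sites further from ZNF143.

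The NRF1 core stood within 50 bp of 162 sites (2.21%, 1.90 to 2.58), and in 5 of 14642 equal windows placed 400 bp to the left and right (0.0341%). The share was 2.07% among lone distal summits, a difference of 0.142 percentage points (−0.276 to 0.581), and 8.81% among promoter summits, a difference of −6.60 points (−7.12 to −6.06). The full 12-base consensus was at 41 sites (0.560%). The 6-base word was at 479 sites (6.54%, 6.00 to 7.13) and at 0.669% of flanks, and the share exceeded that of lone distal summits by 2.00 points (1.32 to 2.69). Core or 6-base word together marked 580 of the 7321 sites (7.92%), so most of the sites showed neither within 50 bp.

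The words went with the score. No core was found at sites scoring under 5 (0 of 1524 at 2 to 3 and 0 of 1797 at 3 to 5, where the intervals reach 0.251% and 0.213%), and 122 of the 228 sites at 1000 or more held it (53.5%, 47.0 to 59.9). Of the 162 sites with the core, 152 scored at least 100, their median score was 2430, and their NRF1 summits lay a median of 8.5 bp away from its centre. At scores of 1000 or more, 71.9% held the core or the 6-base word. The 418 sites with the 6-base word but no core had a median score of 57.2, between the sites with a core and the set as a whole.

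At equal score, the shared sites held NRF1 words less often than lone distal summits over part of the range. At scores under 10 the differences of the 3 bands and both words lay between −0.0265 and 0.453 points. The highest of these, for the 6-base word at 3 to 5, had an interval of 0.0348 to 1.01, so shared sites held it more often there. The intervals of the others include 0. In the band of 10 to 30 the difference was −1.42 points (−2.57 to −0.520) for the core and −3.37 points (−6.20 to −0.642) for the 6-base word. In the band of 30 to 100 the core differed by −4.59 points (−7.59 to −2.26). In that band the 6-base word was at 20.8% (17.6 to 24.5) of shared sites and 31.5% (26.8 to 36.6) of lone ones, a difference of −10.7 points (−16.7 to −4.70). In the band of 100 to 1000 the core was at 7.81% (5.53 to 10.9) and 19.7% (15.5 to 24.8), a difference of −11.9 points (−17.5 to −6.63). The 6-base word there differed by −3.58 points, and its interval, −10.8 to 3.56, includes 0. At 1000 or more the core shares were 53.5% and 59.3%, and the interval of the difference, −14.5 to 3.13 points, includes 0. The 6-base word at these scores differed by −11.9 points (−20.6 to −2.90). Promoter summits at scores of 100 to 1000 held the core in 12.9% (11.4 to 14.6), between the other sets, and the 6-base word in 22.3%, under the 30.5% of the shared sites. Base composition differs between the sets, and its part in these differences was not tested.

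**Figure D3:**
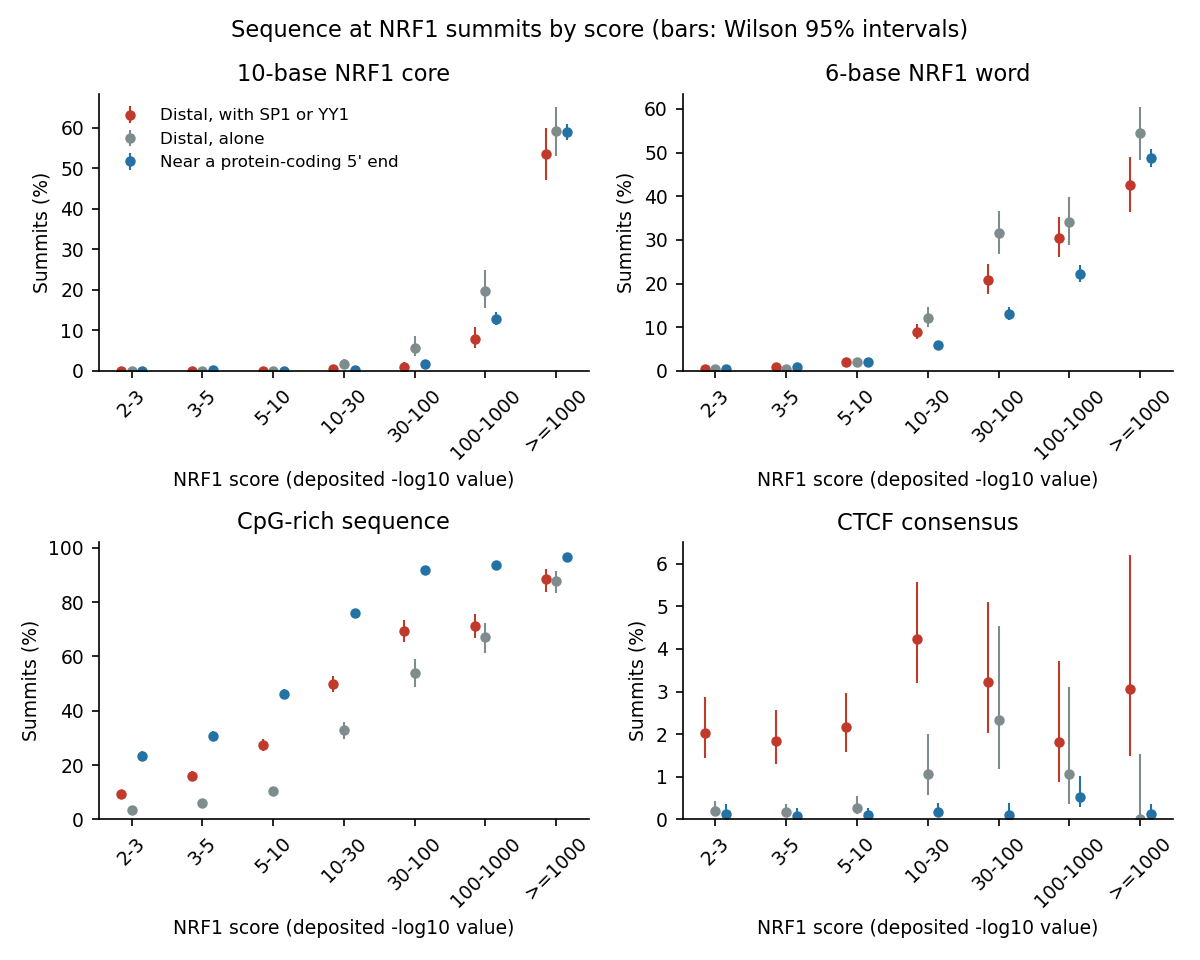
Share of NRF1 summits (vertical axes, %) with the 10-base core, the 6-base word, CpG-rich sequence and the CTCF consensus, by band of NRF1 score (deposited −log10 value, horizontal axes), for shared distal sites, lone distal summits and promoter summits; bars are Wilson 95% intervals. The core goes from 0% to 53.5% of shared sites, CpG-rich sequence from 9.38% to 88.6%, and the CTCF consensus stays between 1.82% and 4.23%.

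The classes differed in the core. Sites with SP1 and no YY1 held it in 94 of 2264 (4.15%, 3.40 to 5.05), sites with YY1 and no SP1 in 30 of 1982 (1.51%) and sites with both in 38 of 3075 (1.24%). Sites with both minus sites with SP1 alone gave −2.92 points (−3.88 to −2.04), and SP1 alone minus YY1 alone gave 2.64 points (1.66 to 3.65). SP1 without YY1 made up 58.0% of the 162 sites with the core and 56.1% of the sites scoring 1000 or more. The classes were not compared at equal score. At sites with the core, the median distance of the SP1 summit from the centre of the core was 70.5 bp (n = 132) and that of the YY1 summit 62.5 bp (n = 68), where the rule keeps partners within 100 bp of the NRF1 summit. In 37.9% of the core sites with SP1 the SP1 summit was 81 to 100 bp from the NRF1 summit, beside 20.2% of all sites with SP1. By the nearer partner, the core share was 1.50% (1.05 to 2.13) with it 0 to 20 bp away and 4.38% (3.37 to 5.69) with it 81 to 100 bp away. Outside the limit it was 3.55% in the first 20 bp, 4.16% (3.09 to 5.58) at 121 to 140 bp and 3.04% at 141 to 160 bp. It was 0.877% (0.403 to 1.90) at 221 to 240 bp. The 100 bp limit thus cut through the bands with the highest core shares.

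Among distal NRF1 summits of all scores, the GC box was most frequent in the classes with SP1. It stood within 50 bp of 1043 sites (14.2%, 13.5 to 15.1) and in 7.98% of flanking windows. Its share was 17.3% (15.8 to 18.9) with SP1 alone, 14.8% (13.6 to 16.1) with both partners and 9.84% (8.60 to 11.2) with YY1 alone, where the flanks had 8.96% (8.11 to 9.88). Lone distal summits had 5.98% at the summit and 5.74% in the flanks. The 32738 distal SP1 summits with YY1 and without NRF1 or ZNF143, searched around the SP1 summit, had only 4.83% and 2.74%. The box also went with the NRF1 score, from 4.66% of sites at 2 to 3 to 37.2% at 100 to 1000. Lone distal summits showed this too, with 1.89% at 2 to 3 and 32.3% at 100 to 1000. At 1000 or more the box was at 36.4% (30.4 to 42.8) of shared sites and 42.7% (36.7 to 49.0) of lone distal summits.

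The YY1 word was rare everywhere. It was at 31 of 7321 sites (0.423%, 0.298 to 0.60) and at 0.280% of flanks (0.206 to 0.380). Sites with YY1 alone had 15 of 1982 (0.757%, 0.459 to 1.24) and sites with SP1 alone 2 of 2264 (0.0883%, 0.0242 to 0.322), and the second minus the first is −0.668 points (−1.161 to −0.290). The LINC02696 site, printed above, shows the word beside a YY1 summit with a score of 6871, which lay 1 bp from an NRF1 summit that scored 3.13.

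A match to the CTCF consensus was more frequent at the shared sites than at other NRF1 summits. It was within 50 bp of 180 sites (2.46%, 2.13 to 2.84), in 0.102% of their flanks, at 0.351% of lone distal summits and at 0.158% of promoter summits. The excess over lone distal summits was 2.11 points (1.75 to 2.50) over all scores. In the bands under 10 it lay between 1.67 and 1.91 points, and at 10 to 30 it was 3.17 points (1.76 to 4.61). At 30 to 100 it was 0.887 points (−1.62 to 3.09) and at 100 to 1000 0.748 points (−1.50 to 2.77), with intervals that include 0. At 1000 or more it was 3.07 points (0.877 to 6.20). Of the 180 sites, 139 had both SP1 and YY1, where the share was 4.52% (3.84 to 5.31), and the share was 1.61% (1.15 to 2.27) with YY1 alone and 0.398% (0.209 to 0.754) with SP1 alone. The 32738 distal SP1 summits with YY1 and without NRF1 or ZNF143, searched around the SP1 summit, had 2.64% (2.47 to 2.82). The NRF1 sites with both partners exceeded these by 1.88 points (1.18 to 2.69), with windows centred on the NRF1 summit in one set and on the SP1 summit in the other.

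Within 50 bp of the NRF1 summit, the consensus was more frequent the nearer the partner lay. Its share was 5.03% (4.16 to 6.08) where the nearer partner lay 0 to 20 bp from the NRF1 summit, 2.81% at 21 to 40 bp, 1.39% at 41 to 60 bp, 0.913% at 61 to 80 bp and 0.496% (0.228 to 1.08) at 81 to 100 bp. In the first 20 bp outside the limit it was 0.374%. A match under a partner summit more than 50 bp away falls outside the window and was not counted. The decline is thus tied in part to the window, and how far was not tested. Over all sites the share was 1.11% within 25 bp of the NRF1 summit and 4.45% within 100 bp. Unlike the NRF1 words, the consensus did not climb with the NRF1 score: 2.03% (1.44 to 2.87) of sites at 2 to 3, 4.23% (3.20 to 5.58) at 10 to 30 and 1.82% (0.886 to 3.71) at 100 to 1000 held it. Sites with the consensus had a median NRF1 score of 8.33, 56.7% of them scored under 10, beside 69.3% of all sites, and 24.4% were CpG-rich, beside 31.5%. The NRF1 core was at 5 of the 180 (2.78%, 1.19 to 6.34), beside 2.21% of all sites. CTCF binding itself was not measured in the lists used here.

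**Figure D4:**
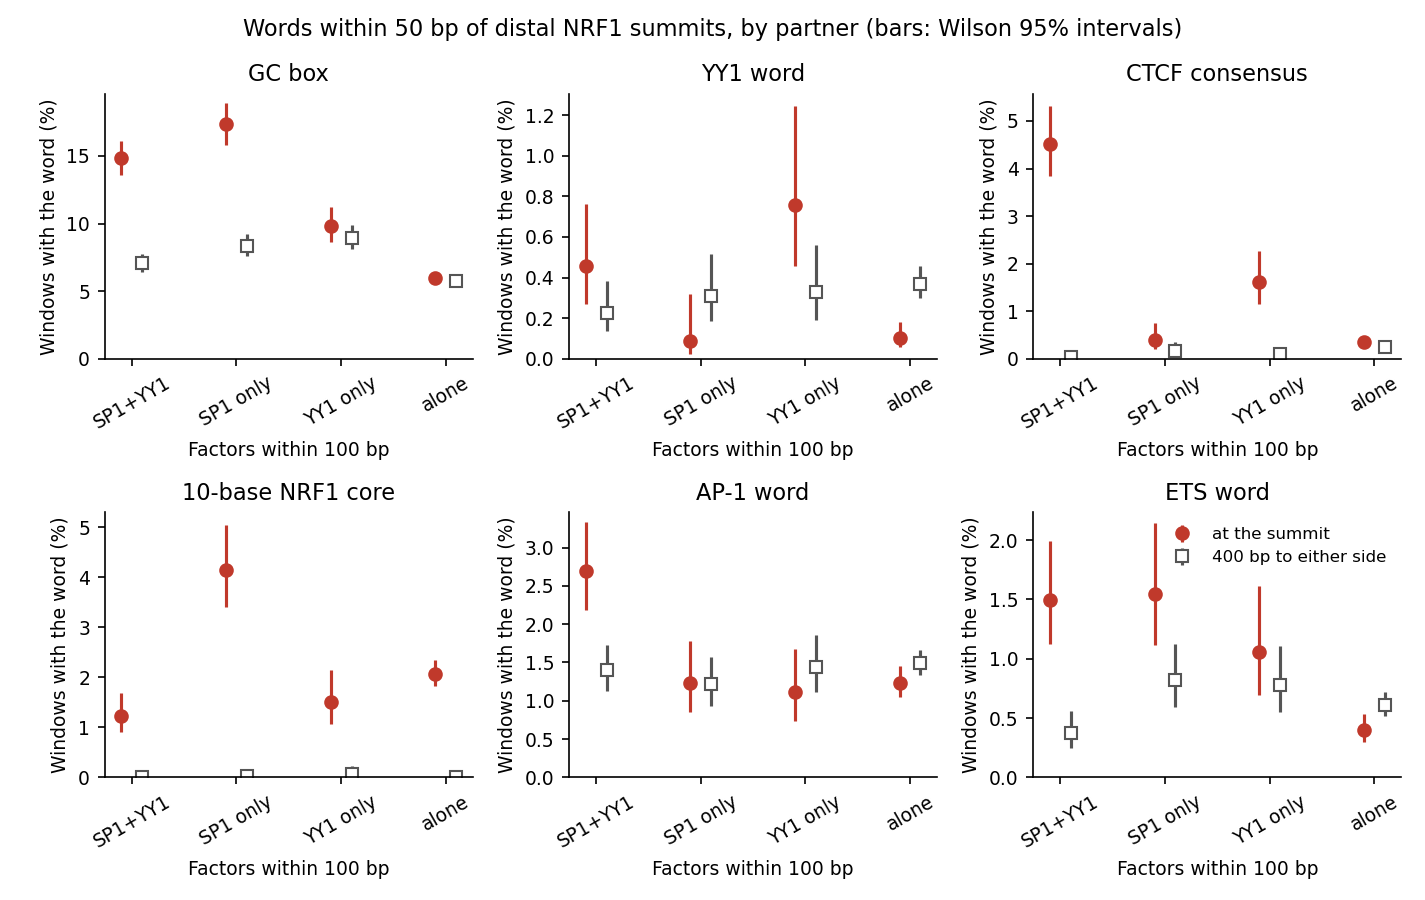
Share of windows with each of 6 words (vertical axes, %) within 50 bp of distal NRF1 summits (filled circles) and in windows 400 bp to either side (open squares), by the factors within 100 bp (horizontal axes); bars are Wilson 95% intervals. The CTCF consensus stands at 4.52% with both partners and the core at 4.15% with SP1 alone.

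CpG-rich sequence, defined over 100 bp to either side of the summit by at least 50% GC and a CpG observed over expected of at least 0.6, surrounded 2304 sites (31.5%, 30.4 to 32.5). The share was 13.0% for lone distal summits, 61.2% for promoter summits and 7.72% for distal SP1 and YY1 without NRF1. Shared sites exceeded the lone summits by 18.5 points (17.2 to 19.7) and differed from the promoter summits by −29.7 points (−31.0 to −28.4). The partner classes were alike in this, at 32.2% with both, 30.1% with SP1 alone and 31.9% with YY1 alone. CpG-rich sites had a median NRF1 score of 15.0 and the others 4.31, and the core was at 6.29% (5.37 to 7.36) of the first and 0.339% (0.212 to 0.542) of the second. The CTCF consensus had the opposite lean, 1.91% (1.43 to 2.55) of CpG-rich sites and 2.71% (2.30 to 3.20) of the others, with overlapping intervals. At scores of 5 to 10 the shared sites were CpG-rich in 27.4%, lone distal summits in 10.4% and promoter summits in 46.3%, and at 1000 or more the shares were 88.6%, 87.9% and 96.8%.

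Although distal by rule, many of the sites lay at a transcript start. The rule measures from the annotated 5′ end of a gene, which is that of its most upstream transcript, so an internal start of a protein-coding gene and the start of a noncoding RNA both count as distal. The 5′ end of an annotated transcript lay within 500 bp of 1833 sites (25.04%, 24.1 to 26.0), beside 16.7% of lone distal summits (difference 8.39 points, 7.19 to 9.60) and 8.76% of distal SP1 and YY1 without NRF1 (16.3 points, 15.2 to 17.3). Transcripts of protein-coding genes gave 1169 of these (16.0%), of long noncoding RNA genes 669 (9.14%) and of other genes 203 (2.77%), and a site can have more than 1 kind. The DUBR site shows the second kind: it lies 1 bp from the start of a transcript of that long noncoding RNA gene, with an NRF1 score of 10311.

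Sites at a start differed from the rest in most measures. Their median NRF1 score was 11.0 (10.1 to 12.3), 67.6% were CpG-rich and 5.78% held the core. The 1976 sites with no transcript start within 10 kb had a median of 4.48 (4.38 to 4.77), 16.6% CpG-rich sequence and the core at 0.911%. The 6-base word was at 10.3% of sites at a start and 5.47% of those beyond 10 kb. The CTCF consensus was at 1.25% (0.838 to 1.88) of sites at a start and 2.58% (1.97 to 3.38) of sites beyond 10 kb, and both partners were present at 35.1% and 45.1%. Of the 228 sites scoring 1000 or more, 62.7% (56.3 to 68.7) lay within 500 bp of a transcript start, and of those at 2 to 3, 11.8%. Lone distal summits had 70.2% (64.2 to 75.5) and 9.84% in these bands. At 100 to 1000 the shares were 52.9% of shared sites and 41.9% of lone distal summits.

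**Figure D5:**
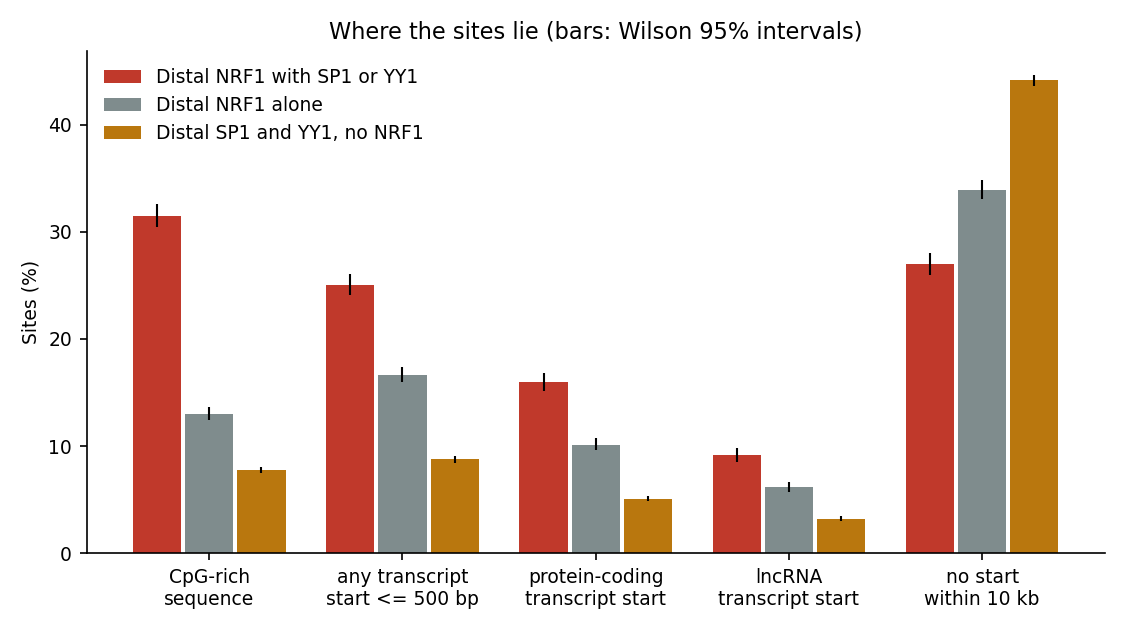
Share of sites (vertical axis, %) in CpG-rich sequence, within 500 bp of a transcript start of any, protein-coding or long noncoding RNA genes, and with no start within 10 kb, for shared distal NRF1 sites, lone distal NRF1 summits and distal SP1 and YY1 sites without NRF1; bars are Wilson 95% intervals. The shared sites are highest in the first 4 measures (31.5%, 25.04%, 16.0% and 9.14%) and lowest in the last (27.0%).

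By position in the annotation, 3320 sites (45.3%) lay in introns of protein-coding genes, 1980 (27.0%) between genes, 680 (9.29%) in introns of other genes, 615 (8.40%) in noncoding exons, 479 (6.54%) in UTRs and 247 (3.37%) in coding sequence. The coding share exceeded the 1.87% of lone distal summits by 1.51 points (1.03 to 2.00). The median distance to the nearest protein-coding 5′ end was 24565 bp, and 1314 sites (17.9%) were more than 100 kb away. Lone distal summits had 33135 bp and 25.1%, and distal SP1 and YY1 without NRF1 32.4% beyond 100 kb.

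The strongest sites illustrate these kinds of place. The highest score, 15810, was at chr17:47492692, between genes, 30250 bp upstream of the 5′ end of NPEPPS (an aminopeptidase gene) and 199 bp from a transcript start of the long noncoding RNA gene MRPL45P2. It ranked 90 in the whole NRF1 list, had SP1 100 bp away with an SP1 score of 665, and its NRF1 core was centred 32.5 bp from the summit. The second, 14729, was at chr8:140464521, 5942 bp upstream of TRAPPC9 and with both partners (SP1 55 bp and YY1 43 bp away), and it had the 6-base word and no core. The site at chr19:35124650 scored 13912 in a UTR of LGI4, with an SP1 summit of only 29.0 at 92 bp. Of the 10 highest scores, spaced by more than 10 kb, 8 had SP1 without YY1 within 100 bp and 2 had both. Each of those 8 had a YY1 summit further out, from 120 bp away at the LRFN3 site to 277 bp away at chr17:47492692. At the latter the YY1 score was 1709, above the SP1 score of 665. The class of these sites thus rests on the 100 bp limit.

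Some of these lay a few kb from a protein-coding 5′ end, or at a transcript start that the rule does not use. The LRFN3 site (score 13503) lay 3801 bp upstream of LRFN3, a synaptic adhesion gene, and the EEF2 site (11788) 2456 bp upstream of EEF2, the translation elongation factor. The TMEM219 site (11172) was in an intron of TMEM219, 92 bp from one of its transcript starts. The site at chr17:68248005 (10937) was 1 bp from a transcript start of AMZ2. The CROCCP2 site (12236) was in an intron of that pseudogene and 74 bp from a transcript start, with SP1 at 30 bp, YY1 at 55 bp and ZNF143 at 115 bp.

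Others were far from any annotated start. The NUFIP1 site (13470) lay between genes, 71387 bp from NUFIP1, which was also the nearest transcript start, with SP1 at 86 bp, a CpG observed over expected of 1.00 and the core 16.5 bp from the summit. The PLLP site (10442) was 15930 bp from the nearest start and held the 6-base word. The site at chr9:100598926 (9157) was 17547 bp from a start, with YY1 at 56 bp and no SP1 within the limit. At chr6:79778114 (7381), 55258 bp from a start, neither NRF1 word was found. Its partners scored 9.83 (SP1) and 19.7 (YY1), under the medians of 30.9 and 31.2 for partners of the sites. The OAT site (6905), 13976 bp from a start, had the full 12-base consensus and GC content of 77.6%.

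The strongest partners did not stand beside the strongest NRF1 summits. The 3 highest SP1 scores among the sites were 9064 at chr9:79448126, 8877 at chr8:37675546 and 8163 at chr12:14257900, with NRF1 scores of 31.8, 3.23 and 22.9. The 3 highest YY1 scores were 8271 at chr19:49813519 in an intron of FUZ, 6871 at the LINC02696 site and 5804 at chr22:21567879 in a noncoding exon of UBE2L3, with NRF1 scores of 36.1, 3.13 and 27.9. The NRF1 scores of 36.1, 31.8, 27.9 and 22.9 lay above the upper quartile of all sites, 13.1. Those of 3.23 and 3.13 lay under the lower quartile, 3.25. None of these 6 held an NRF1 core or 6-base word within 50 bp, which 7.92% of all sites did, and 6 sites are too few to compare with that share.

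The sites were unevenly spread over chromosomes. Chromosome 19 had 7.08 per Mb, chromosome 17 4.95 and chromosome 22 4.09, and chromosome 2 had the fewest at 0.871 per Mb (211 sites), followed by chromosome 18 at 1.12. The low value of chromosome 2 held for the whole NRF1 list, with 1341 lines beside 4478 on chromosome 1, and less so for distal SP1 and YY1 without NRF1, 1703 beside 3219. The share of distal NRF1 summits that were shared sites ran from 27.5% on chromosome 13 to 55.9% on chromosome 19. Copy number in this line, which is not diploid, was not measured in the lists, and its part in these counts was not tested.

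Linked within 10 kb, the sites formed 5810 groups, of which 4750 held 1 site and 268 held 3 or more. The largest had 12 sites over 12559 bp at TFAP2A (chr6:10402181-10414739), a gene for a developmental transcription factor, and none of them scored above 13.1 or held the core. Groups of 8 lay at EFNA3, an ephrin ligand gene, at FLYWCH1, beside OR1F1 and ZNF213, beside PDE6D, at HNRNPH1, an RNA-binding protein gene, and at a run of 5S ribosomal RNA genes near RHOU. The HNRNPH1 group spanned 3506 bp, and the OR1F1 group held the highest score of these, 2208. The 5S genes are near-identical copies, so the place of their reads is uncertain.

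Genes of mitochondrial respiration and mitochondrial DNA, the best known NRF1 targets, had a shared distal site nearby about as often as other genes. The rule left out NRF1 summits up to 2000 bp from protein-coding 5′ ends, so these counts say nothing on NRF1 at the promoters of these genes. Of 51 such genes and textbook NRF1 targets, 18 (35.3%, 23.6 to 49.0) had a site within 50 kb of their 5′ end, beside 6426 of 19970 protein-coding genes (32.2%). Within 10 kb the counts were 5 (9.80%) and 2019 (10.1%). The nearest site of ALAS1, the first enzyme of heme synthesis, was 41128 bp away with a score of 4743 and the core. COX6B1 and COX6A1, subunits of cytochrome c oxidase, had sites 3497 and 7480 bp away that scored 20.5 and 27.7. Those of TFAM, which packages mitochondrial DNA, and TOMM20, a receptor of the mitochondrial import machinery, scored 2.12 and 2.65.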

How the data were processed

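Chromatin immunoprecipitation sequencing of 32 samples was deposited as 4 lists of 1-bp summits. From the values, the deposited score is a −log10 significance value (p or q), in MACS layout; the submitters' processing notes name cutadapt, Bowtie2, SAMtools 1.16.1, MACS3, bedtools and hg38, with no role or order. Cutoffs and the samples merged are not given in the sources used here. The lists hold 39194 (NRF1), 126275 (SP1), 106658 (YY1) and 16600 (ZNF143) lines, every position fits hg38, and depth per sample is unknown. The running numbers skip 1380 (NRF1), 1315 (SP1), 11467 (YY1) and 0 (ZNF143), for a reason that is not given. The absence of a summit may thus reflect a line left out, which was not tested. Scores were compared within a list only.

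Distances, words (0 mismatches), CpG content and GENCODE 44 location were computed with Python 3.11.15, numpy 2.4.6, pandas 2.3.3, scipy 1.17.1 and pysam 0.24.0, and checked on simulated data. Words were also searched 400 bp to either side. Shares carry Wilson intervals, differences Newcombe intervals and medians binomial order-statistic intervals, all at 95%; no test was run, because summits are not replicates and the rule used the same lists. Named sites were the 10 highest NRF1 scores, the 3 highest per partner class, the 3 highest SP1 and YY1 scores, the 5 highest beyond 10 kb from any transcript start and the largest groups within 10 kb. The sites, words and gene list were chosen with earlier results of these data known, and the 10-base core and the CTCF examples after their values were seen. Alternatives changed the distances, score threshold, summits per peak, mismatches and windows.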

Additional observations from a re-analysis of the deposited data

How the results depend on the processing

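No paired analysis was possible because the lists hold no value per sample, and for the same reason no replicate could be left out. Of 52 alternatives, 18 stayed close to the value and 34 moved: shares and medians were judged by the 95% interval of the value, and the number of sites by a factor of 1.5. Beyond 1000 bp in place of 2000 bp, sites with both partners were 40.0% and with the CTCF consensus 2.10%; beyond 5000 bp the median score was 5.72. With partners within 50 bp there were 4497 sites, 28.5% with both, a median score of 6.06, CTCF at 3.56%, transcript starts at 26.2% and CpG-rich sequence at 34.5%. Within 250 bp there were 12606, 67.2%, 4.71, 1.50%, 20.1% and 22.6%. With the top 50% of each list by score there were 3173 sites, 44.3% with both, a median of 16.9, the 12-base NRF1 consensus at 1.29%, CTCF at 2.99%, starts at 41.5% and CpG-rich sequence at 57.9%. Keeping the highest summit of each NRF1 peak gave 44.6% with both, a median of 6.68, CTCF at 2.88% and CpG-rich sequence at 34.2%. With 1 mismatch the NRF1 consensus was at 3.39% and CTCF at 6.98%, and the 10-base core, chosen after seeing the data, was at 2.21%. CTCF was at 1.11% within 25 bp and 4.45% within 100 bp. Transcript starts were at 19.2% within 250 bp and 32.5% within 1000 bp, and CpG-rich sequence, over 250 bp to either side, at 28.8%. The causes of these moves were not tested, beyond the width of each window or limit. Unknown depth limits what low scores can show.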

Other observations

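Words of other factors were also searched. The ETS word CCGGAAG was at 102 of the 7321 shared distal NRF1 sites (1.39%, 1.15 to 1.69) and 0.622% of their flanks, and at 0.404% of lone distal summits. The AP-1 word TGACTCA was at 2.70% (2.18 to 3.33) of sites with both SP1 and YY1 and 1.40% of their flanks, and at 1.24% and 1.11% with SP1 or YY1 alone. Distal SP1 and YY1 without NRF1 held it in 4.37%, and the difference of the sites with both partners from these was −1.67 points (−2.24 to −1.002). The CRE word TGACGTCA was at 19 sites (0.260%, 0.166 to 0.405) and 0.0615% of flanks. The E-box CACGTG was at 2.09% and 1.50%. The TEAD word GGAATG, at 4.67% and 4.94%, and CCAAT, at 11.3% and 11.0%, did not differ from the flanks beyond their intervals. Sites with SP1 and no YY1 had CCAAT at 13.7% (12.4 to 15.2), beside 10.9% (10.1 to 11.9) of their flanks. The ZNF143 consensus was at 0.396% (0.276 to 0.568), and the flanks had 0.628% (0.513 to 0.770). The rule left out sites with a ZNF143 summit within 100 bp and not 400 bp away, so this comparison is tied to the choice and is no finding.

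Among the 18720 distal NRF1 summits with no ZNF143 within 100 bp, the share that had SP1 or YY1 was not even along the NRF1 score. It was 31.1% (29.8 to 32.4) at scores of 2 to 3, 39.9% at 5 to 10, 60.6% (57.3 to 63.8) at 30 to 100 and 47.9% (43.4 to 52.4) at 1000 or more.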
